A study of Drosophila melanogaster with 4 samples.

Results

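The genes described here encode the main proteins of the basement membrane of Drosophila melanogaster and enzymes that modify collagen: the type IV collagen chains vkg and Cg25C, the laminin chains LanA, LanB1 and LanB2, the perlecan gene trol, the nidogen gene Ndg, BM-40-SPARC, and the enzyme genes Plod and PH4alphaEFB. They were picked by symbol, with earlier results of these data known, and all 10 were found among the 15682 genes of the authors' deposited table. RNA was sequenced from ovary follicle cells, the somatic epithelium around the germ line of each egg chamber. The 2 EGFR-activated libraries came from cells carrying UAS-EGFR-lambdatop, a receptor for epidermal growth factor in an activated form, together with UAS-CD8-GFP, a membrane-bound green fluorescent protein. The 2 Control libraries came from cells carrying UAS-CD8-GFP only. Both groups grew up at 18 °C and spent 7 to 10 days at 29 °C as adults before dissection. The series' design text calls the replicates biological. The driver line, the number of flies per library and how the cells were separated from other ovary cells are not stated in the labels.

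A basement membrane is the thin sheet of matrix on which an epithelium sits. Laminin heterotrimers, each of an alpha, a beta and a gamma chain, form the first network at the cell surface; type IV collagen trimers form a second, covalently linked network; nidogen and the heparan sulfate proteoglycan perlecan bind to both. Collagen chains are hydroxylated on proline and lysine in the endoplasmic reticulum before they are secreted. In the fly ovary follicle cells secrete basement membrane proteins from their basal side, and the sheet constrains the egg chamber as it elongates; haemocytes and the fat body are further sources of these proteins in the animal.

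Fold changes compare EGFR-activated with Control cells as log2 ratios (EGFR-activated over Control), each with its standard error, and a gene is said to have risen or fallen where its adjusted p in the authors' deposited table (DESeq2) was under 0.05. Of the 10 genes, the authors' deposited table has 7 that rose, 1 that fell (Ndg) and 2 that missed the threshold. Over all 9409 genes with an adjusted p, 18.0% rose and 17.5% fell. The median of the 10 was 0.83 in the authors' deposited table, against 0.06 over the 9409 genes. The direction depended on the scaling: 9 of the 10 had a positive fold change as deposited, and 5 of the 10 did when values were centred on the ribosomal protein genes, whose median of 0.93 shifts the median of all genes to −0.87. On that scale 1 of the 10 (Plod) was higher past the test and 1 (Ndg) lower, against 1.01% and 56.8% of all genes. In RNA from whole cell populations, fewer cells of a type and less RNA per cell cannot be told apart.

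Values per library are not held for these genes. A level for each group was therefore implied from the deposited mean normalised count and fold change, taking the mean as midway between 2 groups of equal size; these levels are estimates with no spread of their own. On this scale the 10 genes summed to 254679 normalised counts in EGFR-activated cells and 129119 in Control cells. Ndg is the lowest of the 10 in both groups, and the other 9 are all above 1000 normalised counts in both.

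**Figure D1:**
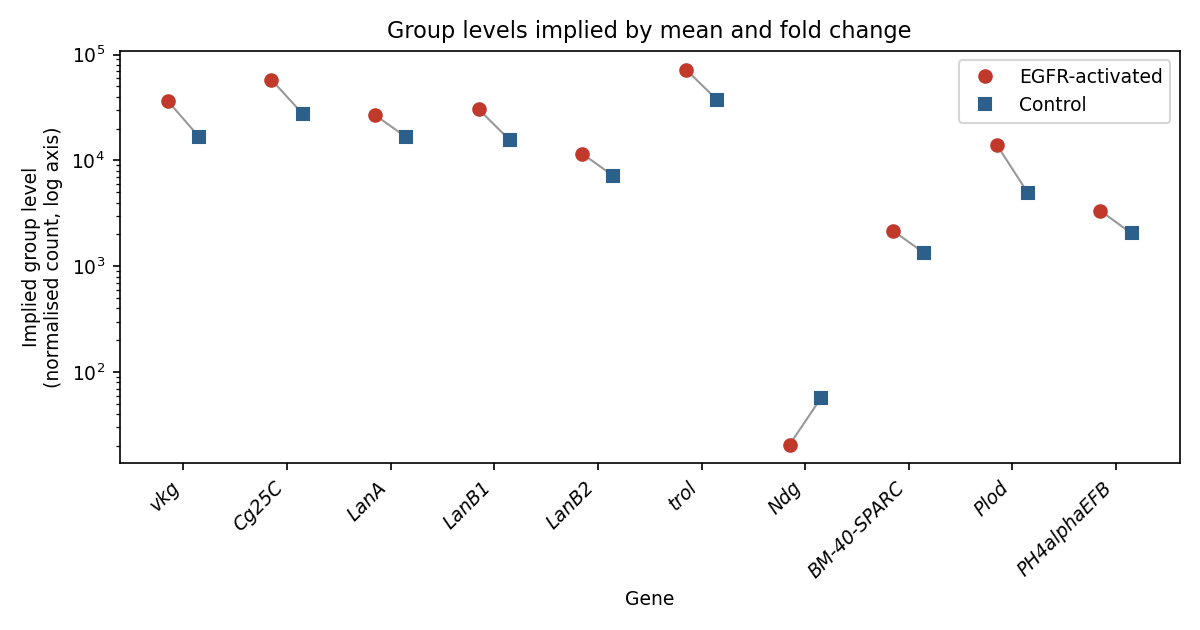
Implied level of each gene (normalised count, log axis) in EGFR-activated cells (circles) and Control cells (squares), from the authors' mean and fold change. Of the 10 genes, 9 lie higher in EGFR-activated cells on the deposited scale, and Ndg lies lower, at 20.7 against 56.4.

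The type IV collagen chains rose together. vkg, which encodes the alpha2 chain, had an implied level of 36369 normalised counts in EGFR-activated cells and 16718 in Control cells. Its fold change was 1.12 ± 0.16 (adjusted p = 4.61e-10, the authors' deposited table), a factor of 2.18 with a 95% interval of 1.74 to 2.72. Cg25C, the alpha1 chain gene now named Col4a1, stood at 57814 normalised counts in EGFR-activated cells and 27535 in Control cells. Its fold change was 1.07 ± 0.16 (adjusted p = 2.05e-09, the authors' deposited table), a factor of 2.10 (1.68 to 2.62). The difference between the 2 fold changes, Cg25C minus vkg, was −0.05, smaller than either standard error. Both calls ended when values were centred on the ribosomal protein genes, with vkg at 0.19 and Cg25C at 0.14. In the BDGP6 annotation the 2 genes are neighbours, are transcribed away from each other, and have 0 genes between them. Per kilobase of exon, the mean over all libraries was 6922 normalised counts for Cg25C and 4082 for vkg, a ratio of 1.70. Cg25C was the highest of the 10 on that scale and ranked 173 among the 15349 genes with a known length.

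Among the laminin chains the beta and gamma genes passed the test and the alpha gene did not. LanB1, the beta chain, stood at 30387 normalised counts in EGFR-activated cells and 15516 in Control cells on the implied scale. It rose by 0.97 ± 0.25 (adjusted p = 0.000836, the authors' deposited table), a factor whose 95% interval was 1.39 to 2.76; centred on the ribosomal protein genes it was at 0.039 and did not pass. LanB2, the gamma chain, stood at 11564 normalised counts in EGFR-activated cells and 7122 in Control cells. Its fold change was 0.699 ± 0.22 (adjusted p = 0.00670, the authors' deposited table), and −0.23 when centred on the ribosomal protein genes. LanA, one of the fly's alpha chains, stood at 26780 normalised counts in EGFR-activated cells and 16599 in Control cells. Its fold change of 0.69 ± 0.32 was close to that of LanB2 but had a wider error and missed the threshold in the authors' deposited table (adjusted p = 0.0735); centred on the ribosomal protein genes it was −0.24. The 95% intervals of the 3 log2 fold changes overlapped, at 0.48 to 1.46 for LanB1, 0.27 to 1.13 for LanB2 and 0.07 to 1.31 for LanA, and differences between the chains were not tested. Per kilobase of exon the means over all libraries were 3654 normalised counts for LanB1, 1855 for LanA and 1579 for LanB2.

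The gene for the other laminin alpha chain, wb, was at −0.05 ± 0.28 (adjusted p = 0.917, the authors' deposited table). Its mean over all libraries was 54.6 normalised counts per kilobase, so that LanA stood 33.95 times higher on that scale.

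The proteoglycan and the linker protein moved in opposite directions as deposited. trol, which encodes perlecan, had the highest mean normalised count of the 10 before division by length, with an implied level of 72219 in EGFR-activated cells and 37295 in Control cells. It rose by 0.95 ± 0.19 (adjusted p = 1.04e-05, the authors' deposited table), a factor of 1.94 (1.49 to 2.52), but it did not pass once values were centred on the ribosomal protein genes (0.022). Per kilobase of its exonic length of 20674 bp, the longest of the 10, its mean over all libraries was 2649 normalised counts, or 0.383 of that of Cg25C.

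Ndg, the nidogen gene, was scarcely detected. Its mean normalised count was 38.5, or 8.0 per kilobase of exon, and trol was 331 times higher on the per-kilobase scale. Its fold change was −1.449 ± 0.47 (adjusted p = 0.00934, the authors' deposited table), with a 95% interval of −2.38 to −0.52. The reads of Ndg in the 4 libraries, recovered from the deposited mean, were 21, 21, 64 and 31, which are 14.4, 18.1, 81.4 and 40.1 normalised counts. No label assigns these recovered values to a group, so their 5.65-fold range holds both the difference between the groups and the spread within them. In BDGP6, 3.28% of the exonic length of Ndg overlaps exons of CG34222 on the opposite strand; no source used here gives the strand setting of the counting, so reads there may belong to either gene. Muscle markers moved with Ndg: of 15 with an adjusted p, 11 fell, against 17.5% of all genes. Among the 11 was the myosin heavy chain gene Mhc at −1.91 ± 0.39 in the authors' deposited table. The implied levels of the 16 muscle markers summed to 34357 in EGFR-activated cells and 42938 in Control cells. Most of both sums came from Tm1, a tropomyosin gene with a mean of 29906 in the authors' deposited table and a fold change of −0.13. Of 4 fat body markers with an adjusted p, 3 also fell and 0 rose. The part of muscle or fat body RNA in the value for Ndg was not tested.

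BM-40-SPARC, which encodes a collagen-binding matricellular glycoprotein, missed the threshold. Its implied level was 2156 normalised counts in EGFR-activated cells and 1331 in Control cells. The fold change was 0.70 ± 0.37 (adjusted p = 0.138, the authors' deposited table), with a 95% interval of −0.04 to 1.43, and it was −0.24 when centred on the ribosomal protein genes. At 1201 bp this is the shortest gene of the 10 by exonic length.

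Of the collagen enzymes, Plod had the largest fold change of the 10 as deposited. Plod encodes the lysyl hydroxylase, which modifies lysines of the collagen chains. It stood at 14026 normalised counts in EGFR-activated cells and 4906 in Control cells on the implied scale. It rose by 1.52 ± 0.25 (adjusted p = 4.66e-08, the authors' deposited table), a factor of 2.86 (2.03 to 4.03), and 98.7% of the 9409 genes had a lower fold change. It was also positive, and past the test, when centred on the ribosomal protein genes (0.58, adjusted p = 0.0366). PH4alphaEFB, a catalytic subunit of prolyl 4-hydroxylase, stood at 3344 normalised counts in EGFR-activated cells and 2040 in Control cells. Its fold change was 0.71 ± 0.27 (adjusted p = 0.0290, the authors' deposited table), and −0.22 when centred on the ribosomal protein genes.

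**Figure D2:**
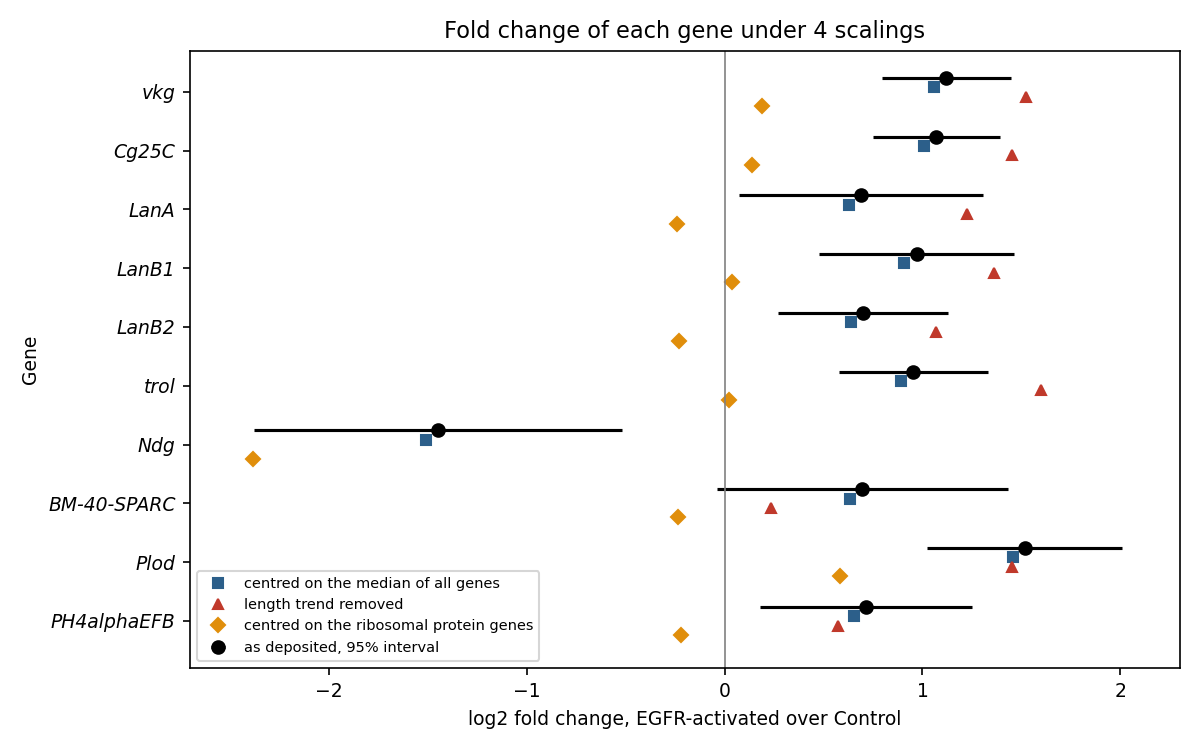
log2 fold change, EGFR-activated over Control, of each of the 10 genes as deposited (circles, with the 95% interval) and after 3 other scalings (squares, triangles and diamonds); Ndg was too low for the length correction. The 9 genes other than Ndg lie between 0.69 and 1.52 as deposited, while 4 of these 9 lie below 0 when centred on the ribosomal protein genes.

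Fold changes fell with gene length over the whole table, and most of the 10 genes are long. Where the mean normalised count reached 50 or more, the median fold change was 0.73 for the 989 genes with an exonic length under 1000 bp, 0.03 for the 2563 of 2000 to 4000 bp, and −0.53 for the 417 of 8000 bp or more. In the longest class 7 of 417 genes rose (1.68%) and 183 fell (43.9%); trol is 1 of those 7. In the class of 4000 to 8000 bp, 76 of 1319 genes rose (5.76%) and 450 fell (34.1%), and vkg, Cg25C, LanB1 and LanB2 are 4 of these. A smooth trend of fold change on length stood at −0.65 at the length of trol, −0.53 at that of LanA, and between −0.40 and −0.37 at those of vkg, LanB1, Cg25C and LanB2. It stood at 0.07 at the length of Plod, 0.14 at that of PH4alphaEFB and 0.46 at that of BM-40-SPARC.

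With that trend subtracted, the fold changes of the long genes were larger than as deposited. trol was at 1.60 (adjusted p = 8.85e-15), vkg at 1.52 (adjusted p = 3.57e-18), Cg25C at 1.45 (adjusted p = 6.47e-17) and LanB1 at 1.36 (adjusted p = 1.33e-06), by a Wald test recomputed over 7772 genes. LanB2 was at 1.07 (adjusted p = 1.83e-05). LanA, at 1.22, now passed the test (adjusted p = 0.000881), so that all 3 laminin chains were higher. Plod was at 1.45 (adjusted p = 1.96e-07). The call of PH4alphaEFB ended (0.57, adjusted p = 0.103), and BM-40-SPARC was at 0.23 (adjusted p = 0.699). Of 9 genes of the group with a corrected value, 7 were higher past the test and 0 lower, against 11.3% and 16.9% of the 7772 genes.

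The ribosomal protein genes are themselves short, and with the length trend subtracted their median was 0.34 in place of 0.93. Centred on that value after the subtraction, the same 7 genes passed the test, from 0.73 for LanB2 (adjusted p = 0.00424) to 1.26 for trol (adjusted p = 1.13e-09). On that scale 3.65% of the 7772 genes were higher and 30.2% lower. With a lower minimum mean of 20, which admits Ndg, Ndg was at −1.16 and did not pass (adjusted p = 0.0532). The length of trol is the union of the exons of all its annotated isoforms, and the isoforms present in these cells were not resolved.

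**Figure D3:**
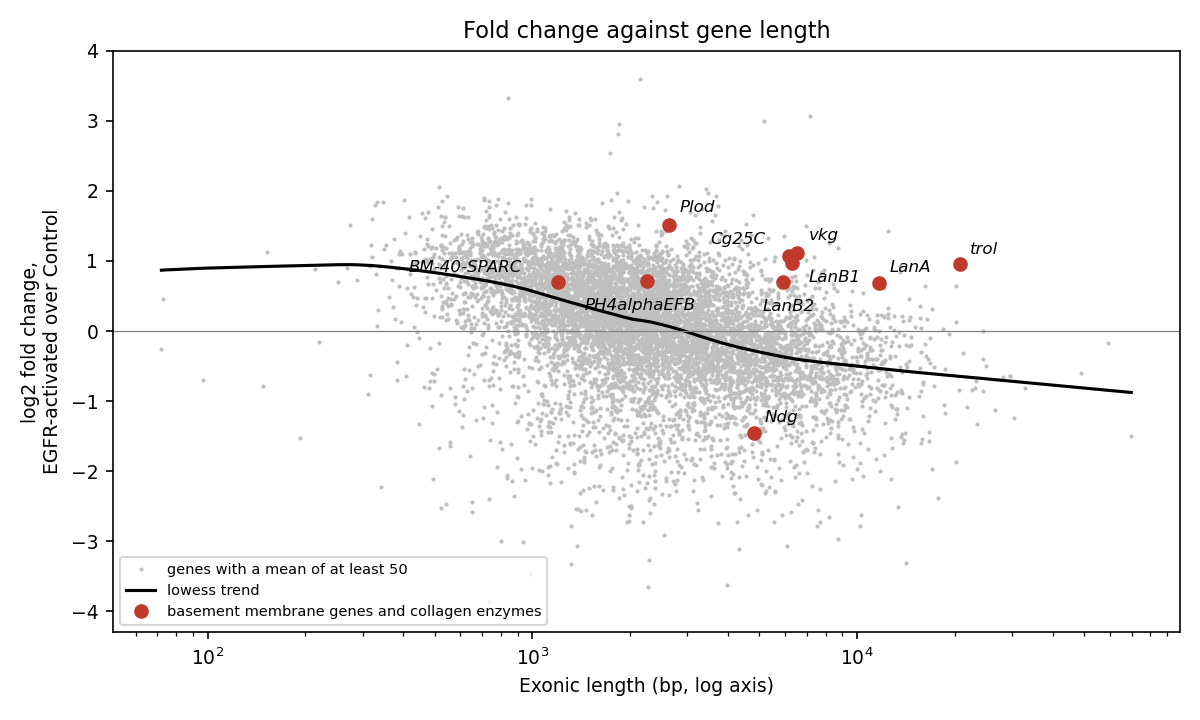
log2 fold change, EGFR-activated over Control, against exonic length (bp, log axis) for genes with a mean of at least 50 (grey), their lowess trend (line) and the 10 genes (red); Ndg is shown but did not enter the trend. vkg, Cg25C, LanB1, LanB2, LanA and trol lie above the falling trend, by 1.07 to 1.60.

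Other genes of the matrix mostly fell or missed the threshold. Of 13 further matrix genes and matrix proteases with an adjusted p, the authors' deposited table has 1 that rose, 6 that fell and 6 that missed the threshold, with a median of −0.92. Of all 9409 genes with an adjusted p, 18.0% rose and 17.5% fell, and their median was 0.06. With the length trend removed 1 of 11 was higher and 3 lower past the test, against 11.3% and 16.9% of the 7772 genes. The gene that rose was stl, which encodes an ADAMTS-family metalloprotease, at 0.73 ± 0.21 in the authors' deposited table (−0.20 centred on the ribosomal protein genes). The matrix metalloproteinase gene Mmp2 fell by 1.38 ± 0.26 (adjusted p = 1.32e-06, the authors' deposited table), with an implied level of 4590 normalised counts in EGFR-activated cells and 11917 in Control cells. Mmp1 was at 0.23 ± 0.36 and Timp, the gene of the inhibitor of both proteases, at 0.16 ± 0.41 in the authors' deposited table, neither past the test. The multiplexin gene (mp), which encodes a collagen of the XV/XVIII type, was at −0.93 ± 0.31 (adjusted p = 0.0101, the authors' deposited table), a call that ended with the length trend removed (−0.53, adjusted p = 0.204). The laminin-related guidance genes NetA and NetB fell by 1.55 ± 0.22 and 1.02 ± 0.33 in the authors' deposited table, of which NetB no longer passed with the length trend removed (−0.57, adjusted p = 0.202). Tig, an integrin ligand of muscle attachments, was at −2.02 ± 0.34, and prc, a collagen-like gene of the heart, at −2.74 ± 0.55 on a mean of 16.6 in the authors' deposited table. The muscle markers that fell, given above, moved with these 2 as well, and their part was not tested.

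Among the partners of hydroxylation and folding no gene passed the test upward as deposited. Of all 9409 genes with an adjusted p, 18.0% rose and 17.5% fell. Pdi, whose product is the second subunit of prolyl 4-hydroxylase and a general foldase, was at 0.17 ± 0.24 (adjusted p = 0.628, the authors' deposited table). PH4alphaPV, another catalytic subunit, fell by 1.987 ± 0.25 (adjusted p = 3.88e-13, the authors' deposited table), with an implied level of 1408 normalised counts in EGFR-activated cells and 5582 in Control cells. Per kilobase of exon PH4alphaEFB had 0.668 of the mean over all libraries of PH4alphaPV. Of the other 6 alpha subunit genes examined, 3 were listed at 0 and 3 had a mean of 2.57 or less. Of 8 folding genes of the endoplasmic reticulum, 0 rose and 1 fell in the authors' deposited table by the DESeq2 adjusted p, the thiol oxidase gene Ero1L at −0.52 ± 0.19; at an unadjusted p under 0.05, 2 were higher and 1 lower, and with the adjustment limited to genes with a mean of at least 50, 1 rose. CaBP1, a protein disulfide isomerase gene, was the closest of the 8 to a rise, at 0.78 ± 0.33 (adjusted p = 0.0539 in the authors' deposited table).

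Of 11 genes of the secretory route, the authors' deposited table has 3 that rose, 2 that fell and 6 that missed the threshold, against 18.0% and 17.5% of all genes that rose and fell. Tango1, whose product acts in the export of collagen from the endoplasmic reticulum, fell by 0.87 ± 0.22 (adjusted p = 0.000585, the authors' deposited table). Ehbp1, an effector in the Rab10 route of basement membrane secretion, was at −0.58 ± 0.21 in the authors' deposited table, and Rab10 itself at −0.59 ± 0.30, not past the test. CG7787, now named strat, rose by 1.17 ± 0.26 in the authors' deposited table. The COPII coat genes sec13 and sar1 were at 0.75 ± 0.25 and 0.55 ± 0.21 in the authors' deposited table, and at −0.19 and −0.39 centred on the ribosomal protein genes. None of these 3, nor Ehbp1, passed with the length trend removed. On that scale 0 of the 11 were higher and 1, Tango1, was lower past the test (−0.60, adjusted p = 0.0273). The shares over the 7772 genes of that scale were 11.3% higher and 16.9% lower.

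Of 10 receptor genes for basement membrane proteins, the authors' deposited table (DESeq2) has 0 that rose, 4 that fell and 6 that missed the threshold. The shares that rose and fell over all 9409 genes with an adjusted p were 18.0% and 17.5%. At an unadjusted p under 0.05 there were 0 higher and 5 lower, while 33.1% of all genes with a p-value passed in either direction. With the length trend removed the 4 were still lower, and 1 gene, Dg, was higher, against 16.9% and 11.3% of the 7772 genes. The 4 are integrin subunits: mys, the main beta subunit, at −1.01 ± 0.21; betaInt-nu at −1.30 ± 0.19; scb, the alphaPS3 subunit, at −1.29 ± 0.18; and alphaPS5 at −2.45 ± 0.28, all in the authors' deposited table. For mys the implied level was 15111 normalised counts in EGFR-activated cells and 30462 in Control cells. The dystroglycan gene Dg, a laminin and perlecan receptor, was at 0.23 ± 0.25 in the authors' deposited table, and at 0.63 (adjusted p = 0.0449) with the length trend removed. The 2 integrin alpha subunit genes mew and if were at −0.43 and −0.10 in the authors' deposited table, not past the test.

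**Figure D4:**
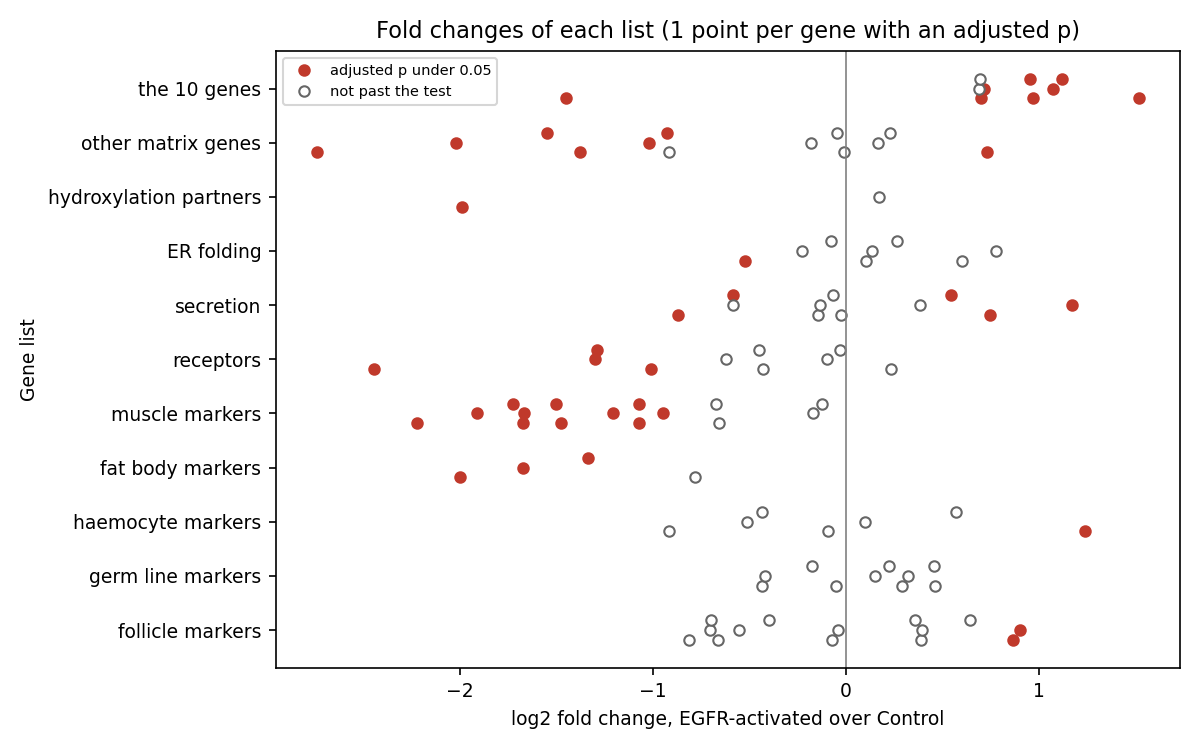
log2 fold change, EGFR-activated over Control, of each gene with an adjusted p in the 10 genes, 5 further lists of matrix biology and 5 lists of cell type markers; filled points passed the test as deposited. Filled points of the 10 genes lie at 0.699 or higher except Ndg, while the 4 filled points of the receptors and the 11 of the muscle markers lie below 0.

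Of the markers of other cell types with an adjusted p, 1 haemocyte marker rose as deposited. The shares for the deposited counts below are those of all 9409 genes, of which 18.0% rose and 17.5% fell. Of the haemocyte markers, Hml had a mean of 36.0 normalised counts and a fold change of −0.10 ± 0.52 in the authors' deposited table; of 7 markers with an adjusted p, 1 rose (lz, on a mean of 21.4) and 0 fell, with 1 lower at an unadjusted p under 0.05. The implied levels of all 10 summed to 5623 in EGFR-activated cells and 7547 in Control cells, most of it from crq, which had a mean of 6398 in the authors' deposited table. Pxn stands both in this list and among the matrix genes. Of 4 fat body markers with an adjusted p, 3 fell, among them the storage protein gene Lsp2 at −1.67 ± 0.31 in the authors' deposited table, and 1 further marker, Fbp1, was listed at 0. The 8 fat body markers summed to 5671 in EGFR-activated cells and 18047 in Control cells on the implied scale. Of 10 germ line markers 0 rose and 0 fell by the DESeq2 adjusted p, and likewise 0 at an unadjusted p under 0.05; osk was at 0.46 ± 0.51 on a mean of 4500 in the authors' deposited table. All 14 follicle cell markers were detected, 2 rose and 0 fell (2 lower at an unadjusted p under 0.05), and tj was at 0.87 ± 0.24 on a mean of 10707 in the authors' deposited table. The follicle markers depended on the scaling as well. With the length trend removed 3 were higher and 4 lower past the test, against 11.3% and 16.9% of the 7772 genes. On the ribosomal protein scale 0 were higher and 8 lower, against 1.01% and 56.8% of all genes. The 3 were tj (0.98), eya (1.05) and br (1.28), which encode transcription factors, and the 4 were the vitelline membrane genes Vm26Aa (−1.37), Vm26Ab (−1.32) and Vm32E (−1.54) and the yolk protein gene Yp3 (−1.03), all on the scale without the length trend. The part of these marker differences in the values of the 10 genes was not tested.

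For the series as a whole, the mean normalised counts summed to 21565892 over all genes, and the recovered size factors of the 4 libraries, which no label assigns to a group, ran from 0.773 to 1.46; a difference in depth between the groups was not tested. The receptor gene Egfr, which the transgene carries, was at 1.498 ± 0.35 in the authors' deposited table.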

How the data were processed

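The labels' protocols give total RNA (RNAqueous-Micro), oligo-dT pulldown and ScriptSeq v2. The authors used TopHat2 2.0.10, HTSeq 0.6.1 and, for the deposited comparison, DESeq2 1.2.10, on build BDGP5, per the submitters' processing notes. Per the file headers the deposited table holds, for every gene, a mean signal (normalised count over all libraries), a log2 fold change and its standard error, a score (the Wald statistic), and p-values before and after adjustment. The authors' DESeq2 version shrinks fold changes by default, which understates those of low genes. Since no counts per library are held, edgeR was not run and the authors' adjusted p at 0.05 is the test. The 5 rows without a gene name stay out; alignments that are not unique held 41.2% of the table's total. Columns of other samples numbered 0. The second deposited table lists 0 of the 10 genes and was not used.

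Intervals are 95% Wald intervals. Centred and length-corrected fold changes were divided by the deposited error, with Benjamini-Hochberg adjustment (scipy 1.17.1). Shrinkage in the deposited values is towards 0 and not towards the new centre or trend. Its effect on the calls after centring or length correction was not tested. Exonic union lengths are from Ensembl 115 (BDGP6), by symbol or RefSeq synonym, and cover 98.5% of the 7887 tested genes whose mean reaches 50; the trend is a lowess curve (span 0.3, statsmodels 0.14.6), which also removes anything else that follows length. No coordinates are given, since the builds differ. Size factors and reads of low genes were recovered from multiples of single reads in the means (tolerance 3e-08; 590 of 600 genes with a mean of 20 to 60 had a single solution). The scripts were tested on simulated data without shrinkage, where the checks covered the median centring and the length trend. Centring on the ribosomal protein genes was run there with randomly drawn genes in their place, and its result was not checked.

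The 10 genes, the lists and the alternatives were chosen with earlier results of these data known. Of 122 list entries 120 were matched. Named genes are the 10; every gene past the test among further matrix genes, hydroxylation partners and receptors; up to 4 of the other matrix lists by smallest adjusted p; and Hml, Lsp2, Mhc, osk and tj. The genes eya, br, Vm26Aa, Vm26Ab, Vm32E, Yp3, wb, Mmp1, Timp, Pdi, CaBP1, sar1, Rab10, Dg, mew, if, Tm1, crq, lz, Fbp1 and Pxn were added after their values were seen.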

Additional observations from a re-analysis of the deposited data

How the results depend on the processing

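Of 87 values of the 10 genes under the other settings, 66 kept their direction and their side of the threshold. Settings that change only the threshold, the adjustment or the genes tested keep the deposited fold change, so no direction could change there. Under a stricter threshold or adjustment, a gene that had missed the threshold could not change sides. Centred on the ribosomal protein genes, 1 of the 10 rose, against 1.01% of all genes. There vkg, Cg25C, LanB1 and trol no longer passed, at 0.19, 0.14, 0.039 and 0.022. LanA, LanB2, BM-40-SPARC and PH4alphaEFB changed sign, to −0.24, −0.23, −0.24 and −0.22. With a Bonferroni adjustment 4 rose and 0 fell, against 3.21% and 5.87% of all genes. LanB1 (0.97), LanB2 (0.699), PH4alphaEFB (0.71) and Ndg (−1.449) no longer passed with it, and at an adjusted p of 0.01 PH4alphaEFB (0.71) did not. With the length trend removed 7 rose and 0 fell, against 11.3% and 16.9% of the genes tested. Ndg, the only gene that fell as deposited, was too low to have a value. On that scale LanA passed at 1.22 and the call of PH4alphaEFB ended at 0.57. At a mean of at least 50, which Ndg does not reach, 0 fell, against 18.6% of the genes tested. Both further settings were chosen after seeing the data. With the trend removed and centring on the ribosomal protein genes, 0 fell, again without a value for Ndg, against 30.2% of the genes tested. LanA passed at 0.89 there, PH4alphaEFB did not at 0.24, and BM-40-SPARC changed sign to −0.10. At a minimum mean of 20, 0 fell, against 16.1% of the genes tested. LanA passed there at 1.25, PH4alphaEFB did not at 0.595, and Ndg did not at −1.16.

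Of 44 genes of the 5 further lists with an adjusted p, 4 rose and 14 fell as deposited, against 18.0% and 17.5% of all genes. At an adjusted p of 0.01, 2 rose and 11 fell (11.7% and 12.6% of all genes). With Bonferroni 0 rose and 9 fell (3.21% and 5.87% of all genes). Centred on the ribosomal protein genes 0 rose and 34 fell (1.01% and 56.8% of all genes). With the length trend removed 2 rose and 10 fell (11.3% and 16.9% of the genes tested). At a minimum mean of 20 the counts were again 2 and 10 (11.3% and 16.1% of the genes tested). With the centring added to the trend removal 1 rose and 15 fell (3.65% and 30.2% of the genes tested). The stricter threshold, the Bonferroni adjustment and the centring alone act on the same 44 genes, while the settings with the length trend removed tested 41 or 42. What else lies behind these moves was not tested.

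No paired analysis was possible because no values per library are held. For the same reason leaving out each library, and other count tests and normalisations, were not run. Precision is that of the deposited standard errors; Ndg had 21 to 64 reads per library.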
